A study of Mus musculus with 15 samples.

Results

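The 9 genes described here encode the NF-kB proteins and the inhibitors that act on them: Rela, Relb, Rel, Nfkb1 and Nfkb2, which encode the DNA-binding subunits, and Nfkbia, Tnfaip3, Nfkbiz and Bcl3, which encode inhibitors and nuclear regulators. They were chosen by name, not by a limit on any measured value, though earlier results of these data were known. They come from the 22342 protein-coding genes annotated on chromosomes 1 to 19 and X of mouse build mm9. For each gene, ChIP-seq tags (aligned sequence reads from DNA pulled down with an antibody) were counted in the 3 kb centred on its start, and in consecutive 3 kb windows over the gene and 50 kb on either side, which gave 379 windows in 9 loci.

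NF-kB is a family of dimeric transcription factors held in the cytoplasm by IκB proteins until kinases mark those inhibitors for destruction. The freed dimers enter the nucleus and switch on genes of inflammation and survival, among them the genes of their own inhibitors, so that the response ends itself. In B lineage cells the pathway carries survival signals, and in macrophages it drives the response to microbial products.

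The libraries came from C10 cells, a derivative of the HAFTL mouse pre-B line that carries C/EBPα fused to the estrogen receptor hormone-binding domain (C/EBPαER) and GFP. The fusion protein was present in every group, and estradiol at 100 nM, with IL-3 and CSF-1 at 10 nM, brings it into the nucleus and converts the cells to macrophage-like cells. The estradiol concentration is that of the labels, and the study's methods give the same figure in micromolar. Control cells received 0.1% ethanol according to the labels, which do not say whether the 0 h cells did. H3K27Ac (found at active promoters and enhancers), H3K4Me1 (found at active and poised enhancers) and H3K27Me3 (a mark of Polycomb repression) were each profiled at 0, 3, 12, 24 and 48 hours post-induction (hpi), with 1 library for each mark and time. The 15 libraries held 11.04 to 31.56 M tags, and each was thinned to the smallest library of its mark, 15.22 M for H3K27Ac, 10.91 M for H3K4Me1 and 15.34 M for H3K27Me3.

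In these bulk samples fewer cells with a mark and less of it per cell cannot be told apart, and no difference between times could be tested, since no group has a replicate. Intervals below are 95% intervals for counting error only. A window was called marked at 34 tags or more for H3K27Ac and H3K27Me3 and 27 for H3K4Me1, and it was called higher or lower when log2(tags + 1) differed by at least 2-fold and the larger count was that of a marked window. Levels are tags relative to the mean of all mappable 3 kb windows, which was 18.3 tags for H3K27Ac, 13.1 for H3K4Me1 and 18.4 for H3K27Me3.

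The H3K27Ac libraries of 0 and 3 hpi stood apart at 1 place. They held 523 and 438 tags in a 90 kb segment of the immunoglobulin heavy chain locus on chromosome 12, where the other 13 libraries held 23 tags together. Both counts are near or below the genome mean of 18.3 tags per 3 kb, so they show no enrichment there. The other 13 libraries were, for a reason not tested, nearly empty in the segment. H3K27Ac results are therefore also given for 12 to 48 hpi, which leaves both libraries out. The starts of 9 of 9 pre-B genes were lower in H3K27Ac at 48 hpi than at 0 hpi, and those of 7 of 8 macrophage genes were higher; the remaining macrophage gene, Cybb, held 1 to 11 tags throughout. The starts of Cd3e, Cd4 and Cd8a held 1 to 8 tags, and that of the erythroid gene Gata1 1 to 3, while the start of Klf1, another erythroid gene, was marked at every time with 76 to 103 tags.

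Before the values, the sequences to which they refer are shown. RefSeq promoter sequences (GRCm38.p6) were held for 6 of the 9 genes, all but Nfkb1, Relb and Nfkbiz, and each was placed on mm9 by an exact match. In the 250 bases before a start, the NF-kB consensus matched on either strand in 7.25% of 32851 promoters. It matched 3 times before the more upstream Nfkb2 start, with 2 of these matches overlapping, and once before the Nfkbia start, and there was 1 match before each of the other 2 RefSeq starts of Nfkb2. It also matched in the Rel promoter (GGGAAATCCC, 92 bases before the start, and an overlapping match) and in the Tnfaip3 promoter (GGAAATCCCC, 12 bases before the RefSeq start, and a second match further out). The Rela and Bcl3 promoters, and that of the Tnfaip3 start at 18731769, held no match. Both sequences below read 5′ to 3′ on the strand of the gene, Nfkb2 on the plus strand at chr19:46378977-46379226 and Nfkbia on the minus strand at chr12:56593635-56593884, with matches in capitals.
Nfkb2: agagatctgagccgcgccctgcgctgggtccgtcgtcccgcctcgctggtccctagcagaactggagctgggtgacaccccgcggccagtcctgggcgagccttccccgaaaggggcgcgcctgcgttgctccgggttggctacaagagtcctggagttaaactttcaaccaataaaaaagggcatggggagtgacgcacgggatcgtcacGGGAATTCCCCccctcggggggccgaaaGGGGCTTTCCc
Nfkbia: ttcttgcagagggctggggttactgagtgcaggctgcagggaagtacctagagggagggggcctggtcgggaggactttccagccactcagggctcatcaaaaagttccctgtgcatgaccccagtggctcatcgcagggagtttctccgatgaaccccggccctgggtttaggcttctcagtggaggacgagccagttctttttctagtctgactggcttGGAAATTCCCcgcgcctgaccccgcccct

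The sites that changed most lay away from the starts, and stretches from 6 such windows are shown. They are not the 6 with the largest changes. Windows are named by the distance in kb from the main start to the window's centre, negative upstream. Sequences are mm9, plus strand. Capitals in the first 5 mark matches to the C/EBP letters TTGCNNAA on either strand, which 76.1% of all 3 kb windows hold at least once, and capitals in the last mark a match to the NF-kB consensus, which 30.6% hold. The Bcl3 window held 2 such matches and no C/EBP match, and the 2 Nfkbia windows shown held 3 C/EBP matches each and no NF-kB match. The Nfkbia window at +3.1 kb (log2 change 3.98 to 48 hpi) is not shown, though it changed more than Tnfaip3 -37 (3.29). It held 2 NF-kB and 2 C/EBP matches. The Nfkbiz window held 1 NF-kB match, and neither Tnfaip3 window held any. The PU.1 letters GAGGAA were in 94.7% of all windows and in each of these 6. The stretches lie at chr12:56587073-56587172, chr12:56575661-56575760, chr10:18772703-18772802, chr10:18714907-18715006, chr16:55765003-55765102 and chr7:20417567-20417666, in the order shown, and none overlaps an annotated exon.
Nfkbia +6.1: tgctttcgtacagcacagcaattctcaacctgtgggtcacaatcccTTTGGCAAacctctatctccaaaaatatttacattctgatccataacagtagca
Nfkbia +18.1: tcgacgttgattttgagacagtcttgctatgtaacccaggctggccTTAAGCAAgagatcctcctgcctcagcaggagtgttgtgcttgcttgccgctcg
Tnfaip3 -37: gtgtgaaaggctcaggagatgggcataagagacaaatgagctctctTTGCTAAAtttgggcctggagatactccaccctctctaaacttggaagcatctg
Tnfaip3 +20: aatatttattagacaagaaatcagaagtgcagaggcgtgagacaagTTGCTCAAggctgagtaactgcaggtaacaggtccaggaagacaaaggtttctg
Nfkbiz +73.5: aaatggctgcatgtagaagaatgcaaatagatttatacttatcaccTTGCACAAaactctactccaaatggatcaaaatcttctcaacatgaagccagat
Bcl3 -8.4: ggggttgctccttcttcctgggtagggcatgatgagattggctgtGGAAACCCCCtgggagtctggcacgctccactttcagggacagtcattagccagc

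The starts of most of these genes were already acetylated in the uninduced cells and stayed so. At 0 hpi, 7 of the 9 main starts were marked by H3K27Ac, against 46.4% of all coding starts, and the median level was 16.5 times the genome mean against 0.874 for all coding starts. Between 0 and 48 hpi 1 of the 9 starts, that of Bcl3, was called higher, and 0 were called lower. The count higher was 3 with libraries scaled on bins enriched at all 5 times or with a 6 kb window, and 1 start was lower in a 1 kb window. Over all 22342 coding starts 3.42% were higher and 7.62% lower. The median log2 change was 0.33 for the 9 genes and -0.17 for all coding starts.

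**Figure D1:**
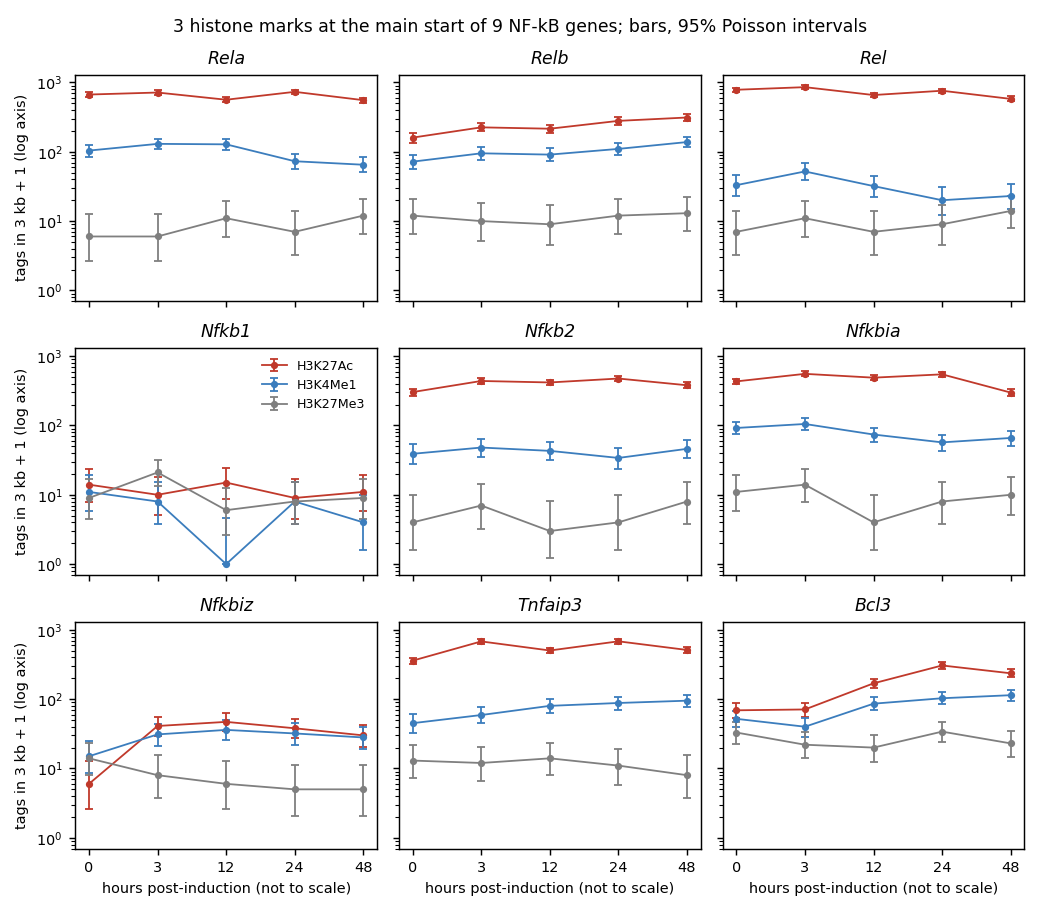
Tags of the 3 marks in the 3 kb at the main start of each gene (y axis, tags + 1, log scale) at the 5 times (x axis, hours post-induction, evenly spaced), 1 library a point with a 95% Poisson interval. H3K27Ac at Rel and Rela stayed at 554 tags or more at every time, H3K27Ac at Bcl3 went from 68 to 235, and H3K27Me3 stayed at or below 33 tags at all 9 starts.

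Rela encodes p65, the subunit that carries a strong activation domain in the most common dimer, and its start on chromosome 19 (5637483) held 668, 714, 562, 731 and 554 H3K27Ac tags at 0, 3, 12, 24 and 48 hpi. Rel, which encodes c-Rel, a subunit prominent in lymphocytes, held 783, 854, 657, 758 and 578 tags at its start on chromosome 11 (23670970). These were the highest levels among the 9 main starts, 36.5 and 42.8 times the genome mean at 0 hpi, above 95.7% and 97.6% of coding starts. The log2 changes to 48 hpi were -0.27 (-0.44 to -0.11) and -0.44 (-0.60 to -0.28). Neither was called, and the Rela value was 0.15 when libraries were scaled on bins enriched at all 5 times.

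Relb encodes the subunit that pairs with p52 in the alternative pathway. Its start on chromosome 7 (20214787) held 159, 224, 214, 278 and 311 H3K27Ac tags, and 71, 94, 90, 109 and 137 H3K4Me1 tags. Both marks were at their lowest at 0 hpi and their highest at 48 hpi. The H3K27Ac change was 1.95-fold by tags + 1, a log2 change of 0.96 (0.69 to 1.25) that lay just under the 2-fold limit.

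Nfkb2 encodes p100, the precursor of p52 and itself an inhibitor. Its start on chromosome 19 (46380185) held 302, 437, 416, 474 and 379 H3K27Ac tags. The 0 hpi library was the lowest, and the log2 change to 48 hpi was 0.33 (0.11 to 0.55). The more upstream start, at 46379227, held 329, 453, 467, 530 and 403 tags and was not called either.

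Nfkb1 encodes p105, the precursor of p50, and has 3 annotated groups of coding starts on chromosome 3. The start shared by most coding transcripts, at 135330763, was unmarked, with 13, 9, 14, 8 and 10 H3K27Ac tags. The most upstream start, at 135354510, held 103, 174, 144, 140 and 170 tags and was marked at every time (log2 change 0.72, 0.36 to 1.09). The most downstream start, at 135271234, held 894, 592, 370, 246 and 314 tags, a log2 change of -1.51 (-1.70 to -1.32), and was called lower. H3K4Me1 there read 114, 139, 159, 155 and 108 tags and was not called (log2 -0.08, -0.47 to 0.31).

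Among the inhibitors, Nfkbia encodes IκBα, the classical cytoplasmic inhibitor that NF-kB itself induces. Its start on chromosome 12 (56593634) held 431, 554, 488, 545 and 297 H3K27Ac tags, with 48 hpi the lowest library and a log2 change of -0.54 (-0.76 to -0.32). The value depended on the width counted: within 1 kb it was -1.48, and within 6 kb 0.13. Tnfaip3 encodes A20, a ubiquitin-editing enzyme that shuts off signalling upstream of the kinases. Its start on chromosome 10 (18735463) held 358, 679, 502, 681 and 511 tags, the lowest of them at 0 hpi. The change from 0 to 3 hpi was 1.89-fold (log2 0.92, 0.74 to 1.11), and H3K4Me1, at 44, 58, 79, 87 and 94 tags, was called higher at 48 hpi (log2 1.08, 0.56 to 1.65). Of its other starts, the one at 18734388 lies 1075 bp downstream, so its 3 kb overlaps that of the main start. It held 339, 637, 406, 443 and 360 H3K27Ac tags and ended near its first value. The one at 18731769 held 25, 54, 51, 40 and 67 and was called higher at 48 hpi (log2 1.39, 0.74 to 2.15).

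Nfkbiz encodes IκBζ, a nuclear IκB-like protein that cooperates with NF-kB at secondary response genes. The start shared by most of its transcripts, on chromosome 16 (55839012), held 5, 40, 46, 37 and 29 H3K27Ac tags and was called higher from 0 to 3 hpi (log2 2.77, 1.66 to 4.70). At 48 hpi it was below the minimum for a marked window and was not called. H3K4Me1 read 14, 30, 35, 31 and 27 tags and was also called higher at 3 hpi, as were 1.77% of all coding starts, while 0.103% were lower. A second start at 55822251 carried most of the acetylation, with 363, 673, 487, 579 and 474 tags. Its change from 0 to 3 hpi was 1.85-fold, close to the 1.89-fold of Tnfaip3, and neither reached the 2-fold limit.

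Bcl3 encodes an IκB-like coactivator that binds p50 and p52 dimers. Its start on chromosome 7 (20408119) held 68, 70, 168, 305 and 235 H3K27Ac tags, flat to 3 hpi and higher from 12 hpi. The log2 change to 48 hpi was 1.77 (1.39 to 2.20), and the step from 3 to 12 hpi was itself called, as it was in 1.97% of coding starts (1.7% were lower). H3K4Me1 read 51, 39, 85, 102 and 113 tags and was also called higher (log2 1.13, 0.66 to 1.65). The start at 20407506 lies 613 bp downstream, so most of its 3 kb is shared with the main start. It moved further, from 21 to 134 H3K27Ac tags and from 17 to 67 H3K4Me1 tags, while the start at 20396470 was unmarked by either. That start was instead marked by H3K27Me3 at every time, with 39, 36, 36, 48 and 58 tags.

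From 0 to 3 hpi, 8 of the 9 starts had more H3K27Ac tags, as did 13031 of the 22342 coding starts, with a median log2 change of 0.36 against 0.15 for all coding starts. For Rel, Rela and Bcl3 the counting interval of the difference included 0. Of the 9 starts 1 was called higher, that of Nfkbiz, against 1.71% of all coding starts, and 0 were called lower, against 1.3%. Scaling on background bins lowers every log2 value of this step by 0.28, which left 5 of the 9 above 0. From 12 to 48 hpi, without the libraries of 0 and 3 hpi, 0 of the 9 starts were called higher and 0 lower, against 1.34% and 3.18% of all coding starts.

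H3K4Me1 was called higher at 2 of the 9 starts, Tnfaip3 and Bcl3, and lower at 0, where 2.95% and 5.1% of all coding starts were called. H3K27Me3 marked none of the 9 main starts at any time and was called at 0 of 9 in either direction, where 0.806% of all coding starts were higher and 0.291% lower. Its highest values were at Bcl3, with 32, 21, 19, 33 and 22 tags, 1.73 times the genome mean at 0 hpi, and its lowest at Nfkb2, with 2 to 7 tags.

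By the likeness of its course, the Nfkbiz start, which had the widest range of H3K27Ac over the 5 times among the 9, was closest to those of Pde6h, Lefty2 and Slc16a3. Their root mean square differences in log2(tags + 1) over the 5 libraries were 0.360, 0.408 and 0.425. All 4 starts had 7 tags or fewer at 0 hpi, so counting error weighs heavily in this order.

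Around the genes, of the 379 windows, 84 (22.2%) were higher in H3K27Ac at 48 hpi than at 0 hpi and 11 (2.90%) were lower. Of all mappable windows in the genome, 4.26% were higher and 2.14% lower, and of those in coding gene bodies and their 50 kb flanks 6.07% and 2.86%. The number of marked windows was 92, 117, 134, 139 and 171 at 0, 3, 12, 24 and 48 hpi. At 48 hpi that was 45.1% of the windows, against 13.4% near coding genes and 9.28% in the genome. Since a call needs a marked window, more of these windows could be called, here and in the shares by locus and step below. How far this accounts for the higher shares was not tested. From 12 to 48 hpi, without the 2 libraries that stood apart, 39 windows (10.3%) were higher and 7 (1.85%) lower, against 3.28% and 1.14% near all coding genes and 2.34% and 0.833% in the whole genome.

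**Figure D2:**
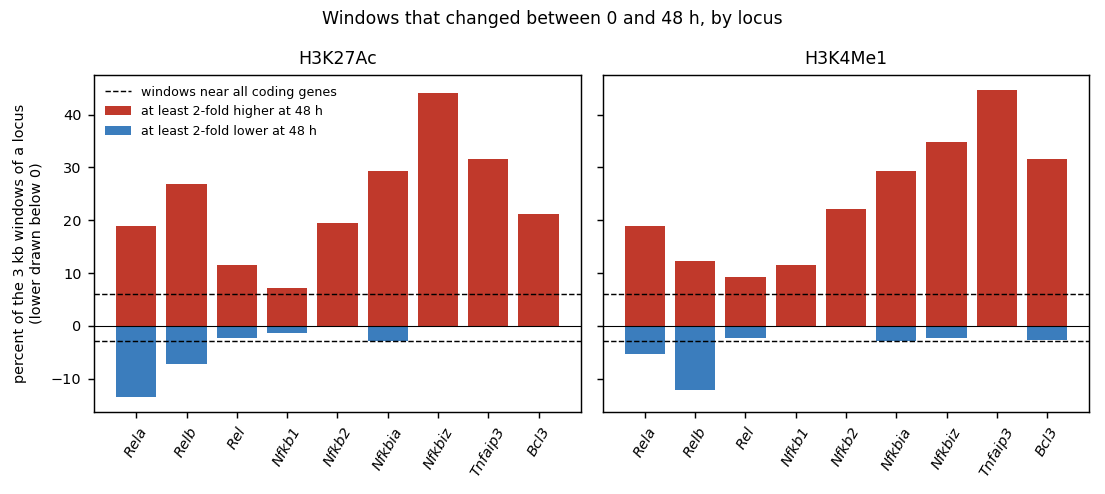
Share of the 3 kb windows of each locus (y axis, percent) that were at least 2-fold higher at 48 h than at 0 h (above 0) or at least 2-fold lower (drawn below 0), for H3K27Ac and H3K4Me1, with 1 library per time. Dashed lines give the same shares for windows of all coding gene bodies and 50 kb flanks, 6.07% and 2.86% for H3K27Ac, and the tallest bars are Nfkbiz for H3K27Ac (44.2%) and Tnfaip3 for H3K4Me1 (44.7%).

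The share of windows higher was larger in the loci of Nfkbia, Tnfaip3, Nfkbiz and Bcl3 than in those of the subunits. That split was made after the data were seen. These 4 are called inhibitor loci here, though Nfkbiz and Bcl3 encode IκB-like nuclear regulators. Nfkb2, whose product p100 also inhibits, is counted with the subunits. The 4 inhibitor loci had 49 of 153 windows (32%) higher and 1 lower, while the 5 subunit loci had 35 of 226 (15.5%) higher and 10 lower. By gene, 19 of 43 windows were higher at Nfkbiz, 12 of 38 at Tnfaip3, 10 of 34 at Nfkbia and 8 of 38 at Bcl3. Among the subunits the counts were 11 of 41 at Relb, 7 of 37 at Rela, 7 of 36 at Nfkb2, 5 of 43 at Rel and 5 of 69 at Nfkb1. Relb (26.8%) thus lay above Bcl3 (21.1%). From 12 to 48 hpi the pooled shares were 24 of 153 (15.7%) and 15 of 226 (6.64%). Nfkbiz had 14 and Bcl3 7 of those 24, and Tnfaip3 had 2 (5.26%) and Nfkbia 1 (2.94%). The subunit loci had 5 at Nfkb2 (13.9%), 5 at Relb (12.2%), 3 at Rel (6.98%), 2 at Nfkb1 (2.90%) and 0 at Rela. In this step Nfkbia and Tnfaip3 lay below Nfkb2, Relb and Rel. Neighbouring genes differ between the groups: the subunit loci hold 20 other coding genes and the inhibitor loci 5, with none at Nfkbia or Tnfaip3. When windows holding the start of another coding gene were left out, the counts over all 9 loci were 84 higher and 8 lower. The count higher could not change, since 0 of the 84 windows held such a start. Windows inside the bodies of neighbouring genes were kept, and these counts were not split by group. The part of neighbouring genes in the contrast was therefore not tested.

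H3K4Me1 gave a similar picture. It was higher in 86 windows (22.7%) and lower in 11 (2.90%), against 4.39% and 2.13% of the genome and 6.08% and 2.84% near coding genes. Here too more windows could be called: at 48 hpi H3K4Me1 marked 51.7% of them, against 12.2% of the genome and 17.2% near coding genes. Tnfaip3 had 17 of 38 windows higher, Nfkbiz 15 of 43, Bcl3 12 of 38 and Nfkbia 10 of 34. Relb had as many lower as higher, 5 and 5 of 41, or 1 and 7 when libraries were scaled on background bins.

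Of the 84 windows that were higher in H3K27Ac, 15 (17.9%) carried both H3K4Me1 and H3K27Ac at 0 hpi, 22 (26.2%) H3K4Me1 only, and 47 (56.0%) neither. The shares over all 35387 such windows in the genome were 14.4%, 26.3% and 58.7%, close to those of these loci. In 55 of the 84 (65.5%) H3K4Me1 was higher too, against 63.9% in the genome. The Tnfaip3 locus had 11 of its 12 such windows higher in both marks, and the Relb locus 4 of 11. At 0 hpi the H3K27Ac library held 523 tags in the heavy chain segment and the H3K4Me1 library 0. The 2 marks read together here thus come from libraries that differ there, and the part of this in the shares was not tested.

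**Figure D3:**
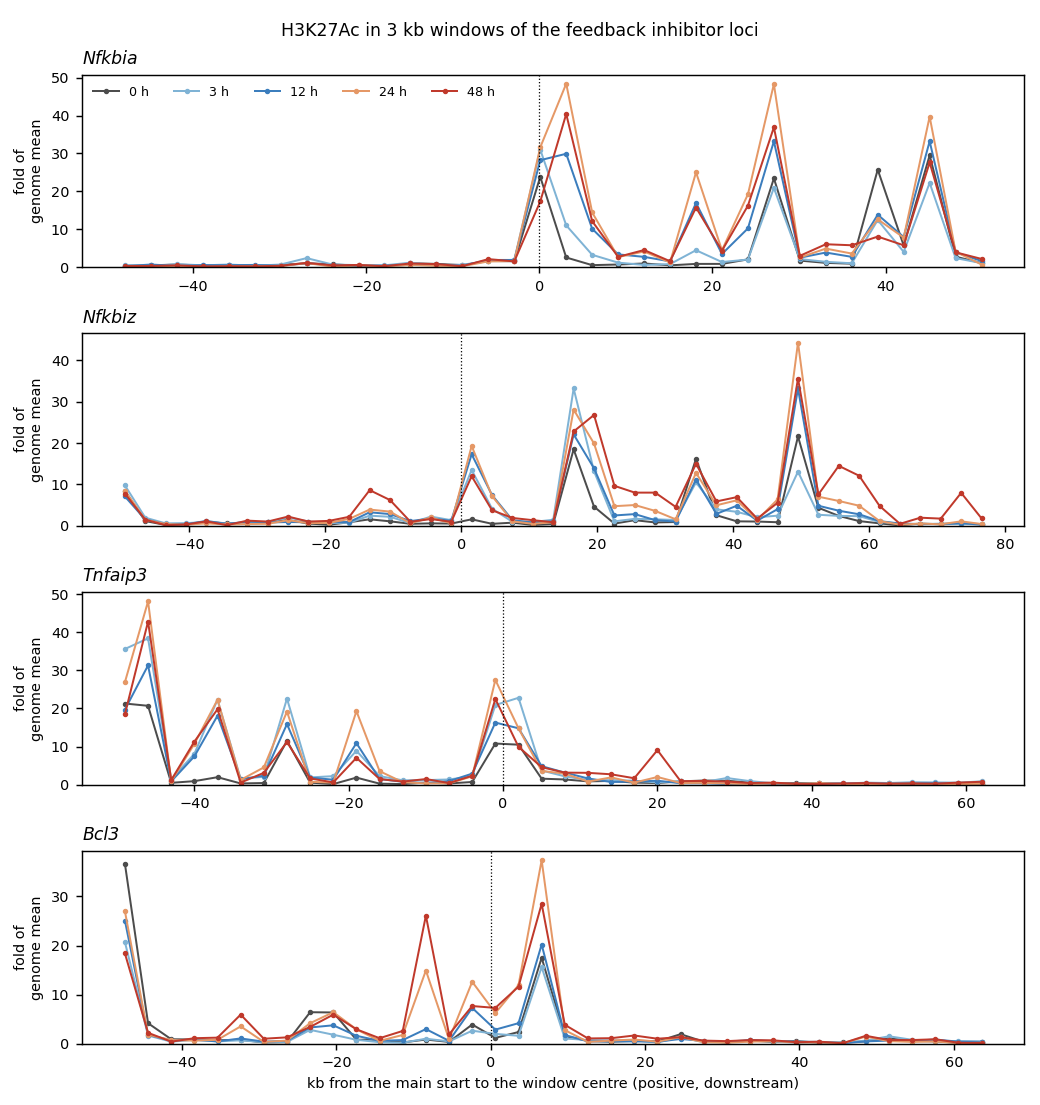
H3K27Ac level (y axis, tags relative to the genome mean) in consecutive 3 kb windows of the Nfkbia, Nfkbiz, Tnfaip3 and Bcl3 loci, against the distance in kb from the main start (x axis, dotted line at the start, downstream to the right), 1 line per time. At Nfkbia added signal lies downstream of the start at +3.1, +6.1 and +18.1 kb, at Tnfaip3 upstream at -37 and -40 kb from 3 hpi, and at Bcl3 at -8.4 kb from 12 hpi.

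At Nfkbia the change lay downstream of a gene that is 3.2 kb long. The window at +3.1 kb, over the 3′ end of the gene (chr12:56589001-56592000), held 46, 201, 548, 886 and 739 H3K27Ac tags, 15.7-fold more at 48 than at 0 hpi (log2 3.98, 3.58 to 4.47). The intergenic windows at +6.1 kb and +18.1 kb, from which stretches are printed above, held 9, 59, 184, 264 and 221 tags and 15, 81, 310, 458 and 287 tags. In these 3 windows every later library exceeded the 0 hpi library at least 4-fold by tags, and the highest value came at 24 hpi. With libraries scaled on bins enriched at all 5 times, the 48 hpi value was the highest at +3.1 and +6.1 kb. H3K4Me1 at +6.1 kb read 15, 29, 173, 139 and 133 tags, and at +18.1 kb 22, 91, 298, 259 and 212.

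Other Nfkbia windows behaved differently. The window with most tags over the 5 times, at +27.1 kb, was strongly marked from the outset with 428, 383, 607, 884 and 675 tags. The window at +39.1 kb fell, with 470, 227, 252, 230 and 147 tags (log2 -1.67, -1.95 to -1.41), and was the only window of the 4 inhibitor loci called lower. By step, 4 of the 34 windows were higher from 0 to 3 hpi, 9 from 3 to 12 hpi and 1 from 12 to 48 hpi, and 1, 1 and 0 were lower. The last count, 2.94% of the windows, was close to the 3.28% near coding genes. The step from 3 to 12 hpi lies between a library with tags in the heavy chain segment and one nearly empty there. In that step 1.73% of all windows were higher and 0.806% lower, or 2.46% and 1.02% near coding genes. The contiguous stretch of marked windows at the start widened from 6 kb at 0 hpi to 21 kb at 12 hpi and was 15 kb at 48 hpi.

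Tnfaip3 had the most windows higher in the first step, with H3K27Ac tags over the whole locus of 1754, 3950, 3024, 4016 and 3443. Both libraries of the step from 0 to 3 hpi hold tags in the heavy chain segment. In that step 10 of the 38 windows (26.3%) were higher and 0 lower, against 1.04% and 1.22% of the genome and 1.42% and 1.61% near coding genes. The count was 3 when libraries were scaled on background bins, below the 5 of Nfkbiz and level with Nfkbia and Relb, and 13 when scaled on bins enriched at all times. From 12 to 48 hpi, 2 windows were higher and 0 lower.

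The largest early change at Tnfaip3 was at -37 kb (chr10:18771001-18774000), where H3K27Ac read 36, 408, 332, 409 and 362 tags. The window beside it, at -40 kb, read 17, 148, 136, 195 and 206. The first was above its 48 hpi value at 3 hpi and the second below it, whereas H3K4Me1 at -37 kb read 27, 71, 181, 170 and 139 and reached its highest value at 12 hpi. The window at +20 kb (chr10:18714001-18717000) differed, with 8, 11, 19, 37 and 166 H3K27Ac tags, most of the gain between 24 and 48 hpi. The window with most tags, at -46 kb, held 378, 702, 573, 881 and 784.

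Some Tnfaip3 windows were highest in between. A transient rise, meaning that some time in between was marked and exceeded the first and the last time 2-fold, was seen in 4 of its 38 windows. It was seen in 7 of the 379, 1.85%, against 0.618% of the genome. At 24 hpi 36.7% of the 379 windows were marked, against 7.67% of the genome, so these shares cannot be compared directly. Whether such rises were more frequent among marked windows was not tested. The clearest at Tnfaip3, named here after its values were seen, was at -19 kb, with 34, 163, 200, 353 and 129 tags. It peaked at 24 hpi and was still higher at 48 than at 0 hpi.

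Nfkbiz had the most windows higher and the largest change over its whole locus, with H3K27Ac totals of 1922, 2725, 3127, 3979 and 4797 tags (log2 1.32). From 0 to 3 hpi 7 of 43 windows were higher, and from 12 to 48 hpi 14, with 0 lower in either step. The shares higher in these steps were 1.04% and 2.34% in the genome and 1.42% and 3.28% near coding genes. The early changes included the window just downstream of the main start, at +1.5 kb, which held 29, 247, 316, 353 and 220 tags and was singled out after its values were seen. With background bins as the scale, 5 windows were higher by 3 hpi.

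The Nfkbiz windows with the largest changes to 48 hpi lay further downstream. The window at +22.5 kb, inside the gene (chr16:55815001-55818000), held 10, 20, 46, 87 and 177 tags, and that at +58.5 kb held 21, 43, 51, 89 and 221. At +73.5 kb (chr16:55764001-55767000) the values were 10, 8, 12, 20 and 146 tags, with H3K4Me1 at 3, 10, 4, 25 and 62. In that window both marks were unmarked through 24 hpi and marked at 48 hpi. The window with most tags, at +49.5 kb, held 395, 240, 608, 811 and 651.

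Bcl3 had no early gain. From 0 to 3 hpi 0 of its 38 windows were higher and 3 were lower, and 4 were higher in each of the next 2 steps. The first of these steps crosses from libraries with tags in the heavy chain segment to those nearly empty there. Near coding genes 1.42% of windows were higher and 1.61% lower from 0 to 3 hpi, and 2.46% and 1.02% from 3 to 12 hpi. From 12 to 24 hpi 0.876% of all windows were higher and 0.3% lower, or 1.2% and 0.417% near coding genes. The intergenic window at -8.4 kb (chr7:20415001-20418000) held 15, 18, 54, 272 and 478 H3K27Ac tags, 29.9-fold more at 48 than at 0 hpi (log2 4.90, 4.26 to 5.84), the largest change of the 379 windows. H3K4Me1 there read 29, 15, 114, 236 and 270. Its neighbour at -11.4 kb held 4, 3, 13, 32 and 47 tags, and a window at -32.4 kb over Ceacam16 held 14, 12, 19, 64 and 108. The window with most tags, at -47.4 kb, went the other way without reaching the 2-fold limit, with 672, 378, 459, 495 and 337.

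**Figure D4:**
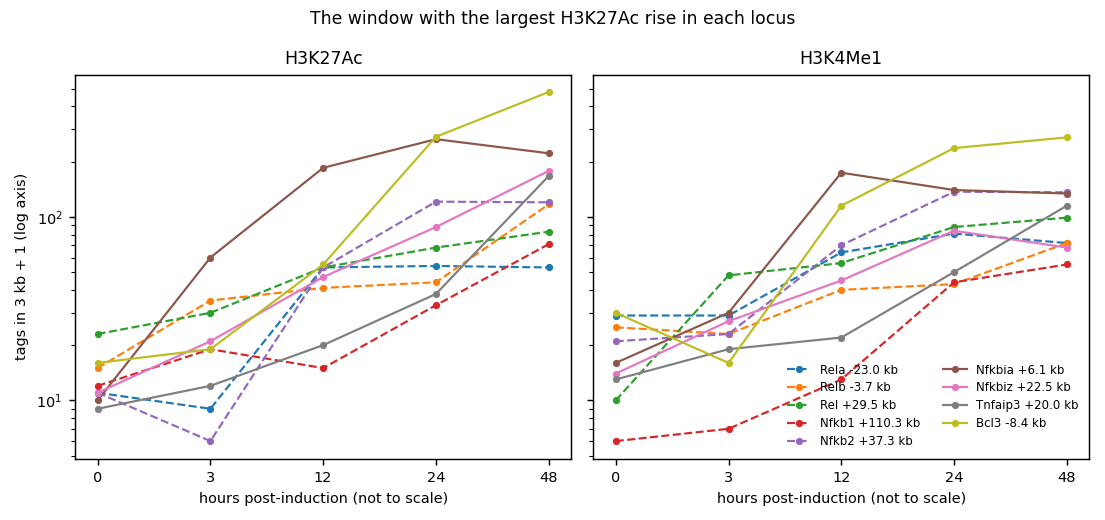
H3K27Ac and H3K4Me1 tags + 1 (y axis, log scale) at the 5 times (x axis, hours post-induction, evenly spaced) in the window of each locus with the largest H3K27Ac log2 increase, 1 library a point, with solid lines for the inhibitor loci and dashed lines for the subunit loci. These windows were picked for their H3K27Ac increase, the widest of which runs from 15 to 478 tags at Bcl3 -8.4 kb.

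In 4 of the 5 subunit loci, losses stood beside gains between 0 and 48 hpi, and Nfkb2 had 7 windows higher and 0 lower. From 12 to 48 hpi the windows lower were 4 at Relb, 2 at Rela, 1 at Nfkb2 and 0 at Rel and Nfkb1. With libraries scaled on bins enriched at all 5 times, only Relb and Nfkb1 of these 5 had a window called lower. At Relb the window at +14.3 kb, inside the gene (chr7:20199001-20202000), was lower, with 586, 316, 503, 316 and 118 H3K27Ac tags (log2 -2.30, -2.61 to -2.02), and H3K4Me1 there went from 230 to 97 tags. The window at -3.7 kb, inside the neighbouring gene Clptm1, was higher, with 14, 34, 40, 43 and 116 tags. A window at -45.7 kb in Apoc2 held 9, 70, 59, 67 and 73 tags and was already high at 3 hpi. The other 2 windows called lower lie at Zfp296, with 382 and 175 tags at 0 hpi and 89 and 61 at 48 hpi. A further gain lay at -9.7 kb in Clptm1, from 17 to 52 tags, and the window with most tags, at the Clptm1 start, went from 930 to 621.

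At Nfkb1 the window called lower, at +59.3 kb, held 832, 558, 366, 242 and 267 tags and contains the downstream start described above. The 3 higher windows with the largest changes held 41 to 70 tags at 48 hpi, and the largest change lay within Manba, a lysosomal mannosidase gene. At Rel the window at +29.5 kb, at the 3′ end, held 22, 29, 52, 67 and 82 H3K27Ac tags and 9, 47, 55, 87 and 98 H3K4Me1 tags. Gains inside Rel at +8.5 kb, from 23 to 70 tags, and in Pus10 at +59.5 kb, from 12 to 37, were smaller, and 1 window in Pus10 at +77.5 kb was lower, from 129 to 64. The window with most tags lay over the Rel start.

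At Rela 7 windows were higher and 5 lower between 0 and 48 hpi. From 12 to 48 hpi 0 of its 37 windows were higher and 2 lower, against 3.28% and 1.14% near coding genes. The 3 largest decreases from 0 to 48 hpi lay at or beside the start of Sipa1, a neighbouring gene for a Rap GTPase-activating protein. The window at that start held 1318, 829, 853, 956 and 552 H3K27Ac tags, the most of any window in that locus. Gains lay at -23.0 kb (10, 8, 52, 53 and 52 tags), inside Rela at +4.0 kb (19, 23, 38, 42 and 71) and in Map3k11 at +58.0 kb (15, 27, 23, 28 and 45). With libraries scaled on bins enriched at all 5 times, 9 Rela windows were higher and 0 lower. At Nfkb2 the largest change was within Tmem180 at +37.3 kb, with 10, 5, 52, 120 and 119 tags, followed by a second Tmem180 window (7 to 70) and 1 in Gbf1 (15 to 86). The window with most tags lay at the start of Cuedc2, with 459, 357, 861, 1063 and 726. The low values at 0 and 3 hpi come from the libraries with tags in the heavy chain segment. From 12 to 48 hpi, without these libraries, the 2 Tmem180 windows (log2 1.18 and 1.98) and the Gbf1 window (1.16) were still called higher. The Cuedc2 window (-0.25) was not called. In that step 5 of the 36 Nfkb2 windows were higher and 1 lower. The part of these libraries in the change from 0 hpi was not tested.

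H3K27Me3 was called in few windows between the first and the last time. Of the 379 windows 1 was higher and 2 were lower at 48 hpi, against 0.737% and 0.223% of the genome and 0.791% and 0.233% near coding genes. The locus with most of it was Tnfaip3, where 21 of 38 windows were marked at 0 hpi and 21 at 48 hpi, mainly over the gene-free stretch downstream of the gene. Both windows called lower were at Tnfaip3. That at -37 kb held 34, 30, 30, 15 and 15 H3K27Me3 tags, and that at -31 kb 54, 59, 68, 38 and 20. H3K27Ac was higher in both. At Nfkbiz 0, 1, 2, 1 and 0 of 43 windows were marked at the 5 times, and at Relb 2, 2, 2, 1 and 0 of 41.

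From 12 to 48 hpi 5 of the 379 windows were lower in H3K27Me3 and 2 higher, against 0.187% and 0.334% of the genome and 0.214% and 0.364% near coding genes. The most windows were marked at 12 hpi, 26.9% of them, against 14.6% of the genome and 18.4% near coding genes. More of these windows could therefore be called. Among the 5 windows lower was that with the largest H3K27Ac change, Bcl3 -8.4 kb, which held 40, 43, 51, 39 and 22 H3K27Me3 tags (log2 -1.18 from 12 to 48 hpi). Another was Nfkbiz +73.5 kb, with 32, 41, 52, 37 and 22 (log2 -1.20). Both were marked at 3, 12 and 24 hpi and unmarked at 48 hpi. Neither was called between 0 and 48 hpi, with log2 changes of -0.83 (-1.68 to -0.08) and -0.52 (-1.39 to 0.29). Of the other 3, 2 lay at Tnfaip3 and 1 at Nfkbia.

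The wider pathway was read at the starts of 45 genes from 3 lists. Over all coding starts 3.42% were higher in H3K27Ac at 48 hpi and 7.62% lower. Of 13 other inhibitors, 1 was higher and 0 lower: Tnip1, which encodes the A20-binding protein ABIN1, held 10, 16, 53, 53 and 83 tags. Of 9 genes for ubiquitin ligases and conjugation 0 were higher and 0 lower, and their log2 changes ran from -0.81 to -0.11. The median changes were -0.22 and -0.20, against -0.17 for all coding starts.

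Of 23 genes for kinases and adaptors, 4 were higher. Ikbke, which encodes the inducible kinase IKKε, held 17, 15, 480, 817 and 579 H3K27Ac tags (log2 5.01, 4.40 to 5.88). Ikbkg, which encodes NEMO, the regulatory subunit of the IκB kinase complex, held 22, 161, 448, 591 and 675 at the start used here (log2 4.88, 4.33 to 5.62). Irak2, a kinase of the Toll-like receptor pathway, held 41, 80, 179, 201 and 141, and Bcl10, an adaptor of antigen receptor signalling, 232, 381, 310, 488 and 497. From 12 to 48 hpi 0 of these 45 starts were called in either direction, against 1.34% of all coding starts higher and 3.18% lower.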

How the data were processed

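ChIP-seq libraries of 3 histone marks from C10 cells at 5 times were assigned to a mark and a time by their labels, with 1 library in each of the 15 groups. Per the study's methods, the authors aligned reads to mm9 with Eland or Bowtie without mismatches and removed identical and non-unique tags. Which aligner served which library is not given in the sources used here. The deposited files hold tag positions of 36 bp without strand, not counts, and 264711134 tags in all. Of 3 files, the last 2 lines carried no position and were left out.

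Since the files differed in how many identical tags they kept, 1 tag per position was kept, and libraries were thinned at random to the smallest of their mark. Tags were placed at their middle, 18 bp from the start, and counted with Python 3.11.15 and NumPy 2.4.6. As a check of the build, 0 tags fell in bins of unknown bases. The genome was NCBIM37, which is mm9, with GENCODE vM1. A gene's main start is the one shared by most coding transcripts, with starts within 500 bp joined. A marked window has a Poisson upper tail below 0.001 over the mean of the 831385 mappable windows, of 879654. Calls use a pseudocount of 1 tag. Poisson intervals of counts and conditional binomial intervals of ratios came from SciPy 1.17.1. Calls were tried on simulated counts with planted changes well above the 2-fold limit at starts with many tags. That simulation held counting error only, so it does not test 2-fold calls at low counts or differences between libraries.

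The genes, lists, motifs and tests were chosen with earlier results of these data known. The text names all 9 genes with every annotated coding start, and per locus the window with most H3K27Ac tags and up to 3 windows called higher and 3 called lower with the largest change. Of the pathway genes, those called in H3K27Ac at the start between 0 and 48 hpi are named, except that 1 of them, like 1 marker gene, is not reported here. The separation of the windows into subunit and inhibitor loci, and the shares near coding genes, were added after the data were seen. Alternatives covered the thinning, the scaling, the fold and the windows. Factor binding and RNA of the study were not analysed here.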

Additional observations from a re-analysis of the deposited data

How the results depend on the processing

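No paired analysis was possible because there is 1 library for each mark and time. The 12 counts of starts and windows called at 48 hpi, and 54 log2 changes at the starts, were computed under 15 alternatives and 1 more chosen after seeing the data, 12 h in place of 0 h, which leaves out the 0 and 3 h libraries. Of 156 counts 105 stayed within 1.5 times the reported value and 51 moved beyond it, and of 486 log2 values 453 stayed within the counting interval and 33 did not. No called start changed sign. The cause of these shifts was not tested beyond what each alternative does by construction.

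Among the log2 values at starts, a 1 kb window moved 15 of 54 beyond their interval, a 6 kb window 4, scaling on background bins 8 and scaling on enriched bins 6. Between 0 and 48 hpi, scaling on bins enriched at all 5 times shifts every log2 value by 0.42 for H3K27Ac, 0.07 for H3K4Me1 and -0.16 for H3K27Me3, and scaling on background bins by -0.09, 0.53 and 0.12. For H3K27Ac at 24 hpi the background bins shift values by 0.54, so the order of 24 and 48 hpi depends on the scale.

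H3K27Ac starts higher, 1 as reported, were 2 with tags as deposited, 1.5-fold or no minimum, 3 with the enriched bins or a 6 kb window, and 0 from 12 h. Starts lower, 0 as reported, were 1 in a 1 kb window. Windows higher, 84 as reported, were 50 at 3-fold, 133 with no minimum, 54 with 20 kb flanks (199 windows) and 39 from 12 h. Windows lower, 11 as reported, were 5 with the enriched bins, 18 at 1.5-fold, 4 at 3-fold, 23 with no minimum, 6 with 20 kb flanks and 7 from 12 h.

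H3K4Me1 starts higher, 2 as reported, were 4 with tags as deposited, background bins, 1.5-fold or a 6 kb window, 1 in a 1 kb window, and 0 at 3-fold or from 12 h. Starts lower, 0 as reported, were 1 at 1.5-fold, with no minimum or in a 1 kb window. Windows higher, 86 as reported, were 55 at 3-fold, 52 with 20 kb flanks and 37 from 12 h. Windows lower, 11 as reported, were 5 with background bins, 27 at 1.5-fold, 6 at 3-fold, 53 with no minimum and 5 with 20 kb flanks.

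H3K27Me3 starts, 0 in both directions as reported, were 3 higher and 1 lower with no minimum. Windows higher, 1 as reported, were 2 with background bins, a shifted grid or from 12 h, 12 at 1.5-fold, 13 with no minimum and 0 at 3-fold. Windows lower, 2 as reported, were 1 with background bins, a pseudocount of 5 or a shifted grid, 5 at 1.5-fold or from 12 h, 22 with no minimum, and 0 at 3-fold or with 20 kb flanks.

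Depth limits the unmarked windows most: a count of 10 tags has an interval of 4.80 to 18.4, so large ratios from such counts have wide intervals.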
